A study of Rattus norvegicus with 9 samples.

Results

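Interferon-stimulated genes are the genes that a cell turns on when an interferon binds its surface, and 48 of them were followed in rat blood mononuclear cells. The set was a list of symbols picked by this known function. The rule uses no measured value, but the list was drawn up when earlier results of these data were known. All 48 were found among the 22077 intact genes of the expression table, on 12 chromosomes. The RNA came from peripheral blood mononuclear cells (PBMC, the lymphocytes and monocytes of blood) of rats of the Sprague-Dawley strain, wild type in every group. The 9 libraries formed 3 groups of 3: normoxia at day 0, Sugen-hypoxia at day 28 and Sugen-hypoxia at day 56. Sugen-hypoxia is a model of pulmonary hypertension in which a blocker of VEGF receptors is combined with a period of low oxygen. The labels give no age, sex or dose, and leave unsaid whether each replicate is its own rat. The p-values therefore cover only the spread among these libraries, which could be technical. The controls were all at day 0, so treatment and time cannot be told apart.

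As background, type I interferons act through the receptor chains IFNAR1 and IFNAR2 and the kinases JAK1 and TYK2, which activate STAT2. It joins IRF9 in a complex that binds a DNA element called ISRE in front of the target genes. Interferon gamma uses its own receptor, and its targets often carry a different element called GAS. The products block viruses at many steps, sense foreign RNA, and restrain the signal itself. In blood, the transcripts of this set are in common use as a readout of interferon exposure.

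The libraries held between 22148400 and 39947430 exon reads. Levels are given as CPM, the exon reads of a gene brought to a common library total and scaled between libraries by the TMM method of edgeR. They differed in red cell RNA: the 5 most-read genes, all of the globin loci, took 43.0 to 56.3% of exon reads in normoxia, 1.42 to 29.0% at day 28 and 40.5 to 44.4% at day 56. Reads in introns were 5.37 to 14.6% of gene reads in normoxia, 14.2 to 24.9% at day 28 and 11.9 to 16.9% at day 56. T cell, B cell, NK cell and monocyte markers were present in every library. The erythroid and platelet markers were also present, although the mature cells have no nucleus. In such mixed samples, fewer cells of a type and less RNA per cell cannot be told apart. Normoxia replicate 1 stood apart from replicates 2 and 3, and day 28 replicate 3 was nearest to normoxia in red cell RNA.

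The set as a whole was lower at day 56 and close to normoxia at day 28. Per library, the mean log2 CPM of the members was 5.08, 5.27 and 5.49 in normoxia, 5.06, 5.46 and 5.13 at day 28, and 4.999, 4.62 and 4.96 at day 56. The 3 day 56 libraries were thus the lowest of the 9, and the ranges of normoxia and day 28 overlapped. For 31 members the lowest of the 9 libraries was at day 56, for 13 it was in normoxia and for 3 at day 28. The highest library was in normoxia for 26 members, at day 28 for 19 and at day 56 for 2. Of the members that peaked at day 28, 16 did so in replicate 2.

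Enough reads for a test were found in 47 members. A member was called where the quasi-likelihood F-test of edgeR gave a Benjamini-Hochberg adjusted p under 0.05 over all 12447 genes tested. At day 28 against normoxia, 0 members rose and 0 fell, where 0.0884% of all genes rose and 0.0402% fell. An unadjusted p under 0.05 was found in 10 of the 47 members and in 3582 of the 12447 genes tested. DESeq2 called 4 members (8.51%) and 13.6% of all genes. In 1 member, Irf1, every day 28 library was above every normoxia library, and in 3 members (Herc6, Isg20 and Rsad2) every one was below. Over all genes, 11.4% were higher and 11.8% lower without overlap, so these counts were no larger than the background. The median log2 fold change of the members was -0.06, and that of all genes was -0.01.

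At day 56 against normoxia, 8 members fell and 1 rose. The 8 were Ifi27, Rtp4, Ifi47, Irgm, Eif2ak2, Dhx58, Trim21 and Irf9, and the 1 was Ifit1. Over all genes, 3.7% fell and 3.42% rose, against 17.0% and 2.13% of the members. The levels of 16 members were below normoxia without overlap, against 14.9% of all genes, and 1 member was above, against 15.6% of all genes. In all, 39 members were lower and 8 higher, and their median log2 fold change was -0.57 where that of all genes was -0.04. Under the other settings tried, the median of the members lay between -0.64 and -0.40.

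Between the Sugen-hypoxia groups, 2 members (Ifi27 and Ifi47) fell from day 28 to day 56 and 0 rose, where 0.121% of all genes fell and 0.426% rose. Without overlap, 21 members were lower at day 56 and 5 higher, against 17.4% and 17.8% of all genes. Here 38 members were lower, and the median was -0.42 against -0.01 for all genes. Among the members that did not pass, the lowest values from day 28 to day 56 were those of Irgm (-1.69, adjusted p = 0.055), Gbp2 (-1.23, adjusted p = 0.19) and Ifit2 (-1.21, adjusted p = 0.097). The highest were those of Rsad2 (1.94, adjusted p = 0.24), Ifit1 (1.83, adjusted p = 0.35), Isg20 (1.72, adjusted p = 0.077), Irf7 (0.72) and Cmpk2 (0.66). The comparisons of day 28 and of day 56 with normoxia share the normoxia libraries, so their values are set side by side below and not counted as separate evidence.

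The number of calls at day 56 leaned on single libraries. The same held for the calls over all genes, where the main fit called 7.12% of genes and 19.1% of the members. Without normoxia replicate 2 or 3, or day 56 replicate 2 or 3, 2 members (4.26%) were called in each case, and these were Ifi27 and Ifi47. These omissions called 0.669 to 0.938% of all genes. Without day 56 replicate 1 there were 5 (10.6%), where 2.40% of all genes were called. Without normoxia replicate 1 there were 27 members, 57.4% of those tested, while 43.0% of all genes were also called. The same omission gave 18 members at day 28 (38.3%), where 45.2% of all genes were called. Between the days it gave 12 (25.5%), where 7.89% of all genes were called. The fall in the median of the set needed no single library: it lay between -0.62 and -0.47 over the 9 omissions.

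**Figure D1:**
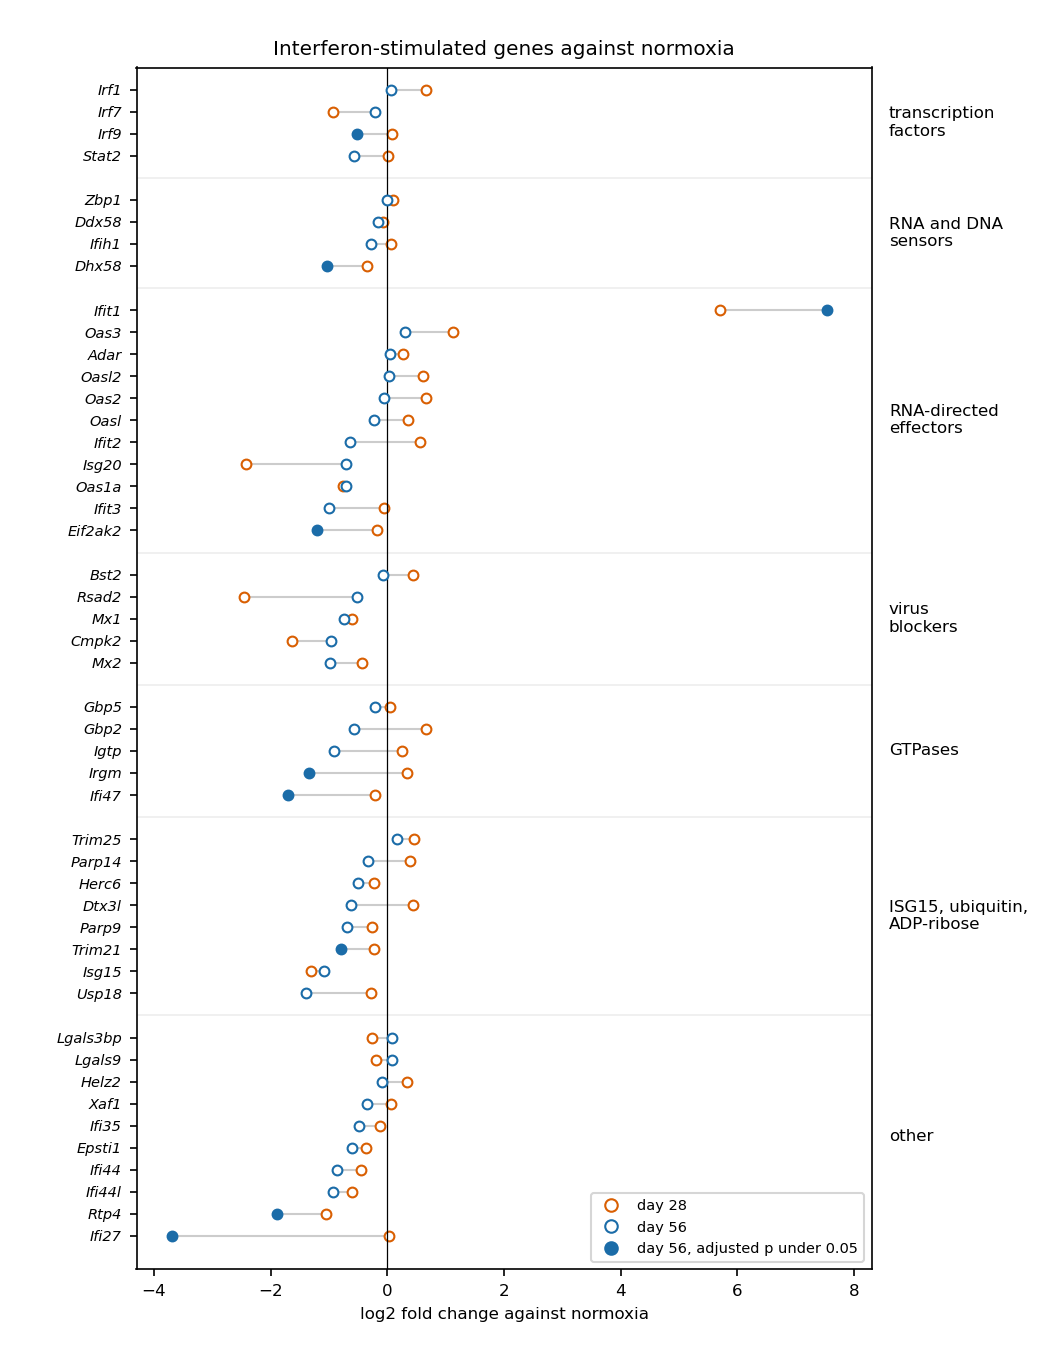
Log2 fold change against normoxia (horizontal axis) of the 47 tested interferon-stimulated genes at day 28 (orange) and day 56 (blue), grouped by role; filled points passed an adjusted p of 0.05. Most blue points lie left of 0, Ifi27 is farthest left at -3.70, and Ifit1 lies far right at 7.53.

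**Figure D2:**
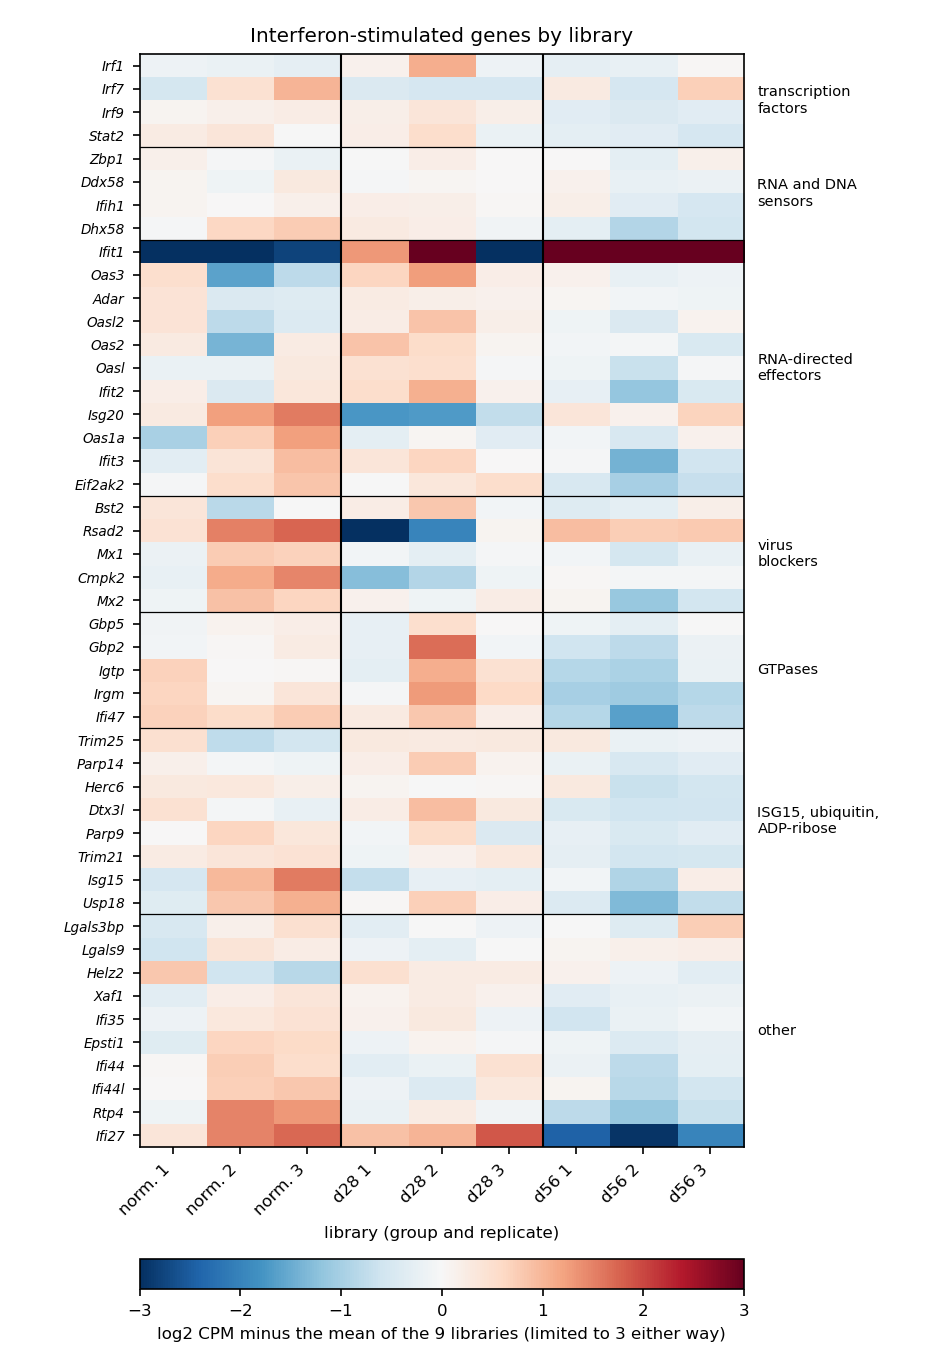
Each row is a tested member and each column a library; colour gives log2 CPM minus the mean of that gene over the 9 libraries, limited to 3 either way. The day 56 columns are mainly blue, day 28 replicate 2 is red in the GTPase rows, and Rsad2 and Isg20 are blue at day 28.

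The promoters of the members were searched for the ISRE and GAS motifs. For the genes that fell and had a promoter window, the sequences are printed here with their matches. RefSeq promoter windows of the GRCr8 assembly, 250 bases before to 50 after each start, were matched by symbol for 37 of the 48 members. No window was matched for Ifit1, Ifit2, Isg15, Mx2, Oas2, Usp18, Ddx58, Dhx58, Adar, Rtp4 and Zbp1. The ISRE was searched as GAAANNGAAA on both strands (TTTCNNTTTC on the other), and the GAS as TTCNNNGAA, which reads the same on both strands. An ISRE match lay in 25 of the 37 windows (67.6%), where 3.92% of all 33469 windows and 3.06% of those of tested genes had one. A GAS match lay in 10 (27.0%), against 8.87% and 6.52%. Both were found in 7 windows and neither in 9. The members were listed as interferon targets, so these shares describe the list. A match is not a site known to be bound, and no match says only that these letters are not in the window.

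Each sequence below runs 5′ to 3′ on the gene's strand, from 10 bases before the first match to the last base before the start, with matches in capitals. Ifi27 carries ISRE matches that begin 169 and 84 bases before its start (chr6:128355133-128355311, plus strand).
Ifi27: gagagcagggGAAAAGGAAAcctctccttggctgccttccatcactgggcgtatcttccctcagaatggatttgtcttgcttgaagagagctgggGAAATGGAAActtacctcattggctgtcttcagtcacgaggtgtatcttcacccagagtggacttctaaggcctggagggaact
Ifi47 has no ISRE match and carries GAS matches that begin 212 and 96 bases before its start (chr10:33798522-33798743, plus strand).
Ifi47: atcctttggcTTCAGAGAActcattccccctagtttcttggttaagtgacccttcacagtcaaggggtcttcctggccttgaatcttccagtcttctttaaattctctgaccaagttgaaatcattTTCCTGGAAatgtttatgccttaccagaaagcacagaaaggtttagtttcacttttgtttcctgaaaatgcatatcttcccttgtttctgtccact
Irf9 also carries a GAS match alone, 99 bases before its start (chr15:33065727-33065835, plus strand).
Irf9: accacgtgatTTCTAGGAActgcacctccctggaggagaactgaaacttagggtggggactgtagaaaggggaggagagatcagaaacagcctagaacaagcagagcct
Trim21 (chr1:166399372-166399399, minus strand) and Eif2ak2 (chr6:21941128-21941153, plus strand) carry the ISRE directly at the start. In Trim21 the matches, 18 and 12 bases before it, overlap.
Trim21: cctctgagagGAAACTGAAAGTGAAAtt
Eif2ak2: agtccgccggGAAAACGAAAcagaga

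A GAS followed 11 bases later by an ISRE was found in 3 members, with no overlap of the motifs. They are the GTPases Irgm (chr10:33742603-33742633, minus strand) and Igtp (chr10:42874923-42874953, plus strand), and the ADP-ribosyltransferase Parp14 (chr11:78408037-78408067, plus strand). They are shown as far as the end of the ISRE so that the shared layout can be read.
Irgm: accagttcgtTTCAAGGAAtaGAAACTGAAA
Igtp: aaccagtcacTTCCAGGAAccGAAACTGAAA
Parp14: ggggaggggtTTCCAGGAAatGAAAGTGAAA
In Bst2 the motifs overlap, and in Ifitm3 the ISRE comes first. Among tested members, the median log2 fold change at day 56 was -0.59 for the 24 with an ISRE match, of which 4 fell, and -0.51 for the 12 without, of which 2 fell. For the 9 with a GAS match it was -0.71, with 3 that fell, and for the 27 without it was -0.52, with 3 that fell. Over all genes tested, 3.7% fell and the median was -0.04, and 17.0% of all tested members fell. These medians and counts were not tested against each other.

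Among the transcription factors of the set, 1 of 4 fell at day 56, where 3.7% of all genes fell. Irf9, the DNA-binding subunit of the ISRE complex, was at 46.6, 49.3 and 51.3 CPM in normoxia, 49.8, 56.8 and 49.7 CPM at day 28, and 34.7, 32.6 and 34.8 CPM at day 56. Replicates lay close together and day 56 was below both other groups. Its log2 fold change at day 56 was -0.53 (standard error 0.13, adjusted p = 0.045), and at day 28 it was 0.09. The change is small, and the call held in 8 of 21 alternative settings, with an adjusted p between 0.0010 and 0.17. Stat2, the STAT partner in that complex, followed the same order without passing: 145, 158 and 123 CPM in normoxia, 143, 177 and 108 CPM at day 28, and 101, 98.0 and 87.2 CPM at day 56. Its day 56 value was -0.57 on the log2 scale (standard error 0.20, adjusted p = 0.098).

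Irf1, which drives many interferon gamma targets, was at 139, 134 and 128 CPM in normoxia and 129, 132 and 159 CPM at day 56. At day 28 it was at 168, 329 and 140 CPM, above normoxia in each library, with replicate 2 well above the other day 28 libraries. The log2 fold change at day 28 was 0.67 (standard error 0.29, adjusted p = 0.17). Irf7, the factor that amplifies type I interferon production, was at 72.9, 143 and 213 CPM in normoxia, 76.9, 73.8 and 73.9 CPM at day 28, and 127, 73.2 and 171 CPM at day 56. The groups overlapped, normoxia replicate 1 sat at the day 28 level, and neither day passed (adjusted p = 0.15 at day 28 and 0.74 at day 56). Over the 4 factors, the median log2 fold change was 0.05 at day 28 and -0.37 at day 56.

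Of the 4 sensors of foreign nucleic acid, 1 fell at day 56, where 3.7% of all genes fell. Dhx58, which encodes LGP2, a helper of the RNA sensors RIG-I and MDA5, was at 19.1, 30.3 and 33.3 CPM in normoxia, 23.9, 22.7 and 18.4 CPM at day 28, and 16.1, 10.7 and 13.4 CPM at day 56. The day 56 group was below all others. At day 56 it fell to a log2 fold change of -1.04 (standard error 0.24, adjusted p = 0.038), and the call held in 10 of 21 alternatives (adjusted p from 0.0012 to 0.15). The sensors themselves did not pass: Ddx58, which encodes RIG-I, differed by -0.17, Ifih1, which encodes MDA5, by -0.28, and Zbp1, a sensor of Z-form nucleic acid, by -0.01 at day 56. In Ddx58 the group means were 8.67 ± 1.28, 8.21 ± 0.29 and 7.71 ± 1.05 CPM (SD, n = 3 each) in normoxia, at day 28 and at day 56, which is within the spread of the replicates.

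The 11 members that act on RNA held the 1 rise of the set and 1 fall at day 56, where 3.42% of all genes rose and 3.7% fell. Eif2ak2, which encodes the kinase PKR that stops translation when it binds double-stranded RNA, was at 32.1, 47.5 and 58.2 CPM in normoxia and 32.5, 41.7 and 47.01 CPM at day 28. At day 56 it was at 23.4, 16.3 and 20.2 CPM, below every other library. That is a log2 fold change of -1.20 (standard error 0.25, adjusted p = 0.026), with calls in 14 of 21 alternatives (adjusted p from 0.00046 to 0.12), and the day 28 value was -0.18.

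The oligoadenylate synthetase family, which includes makers of the signal that activates RNase L, did not move as a block. Oas1a was at 5.75, 18.5 and 26.5 CPM in normoxia, 9.15, 11.8 and 8.92 CPM at day 28, and 10.7, 7.98 and 12.2 CPM at day 56. Oas3 was at 14.3, 3.31 and 5.84 CPM in normoxia, 15.9, 24.1 and 11.6 CPM at day 28, and 11.1, 8.699 and 9.15 CPM at day 56. In both genes normoxia replicate 1 was at the far end of its group, the lowest for Oas1a and the highest for Oas3. No gene of the family passed in any comparison. At day 28 the log2 fold changes ran from -0.76 for Oas1a to 1.13 for Oas3, with Oas2, Oasl and Oasl2 between. Only 83.1% of the Oas1a reads mapped uniquely, and the near-identical copies of this family make its level uncertain. Against day 28, every day 56 library was lower for Oas2, Oas3, Oasl and Oasl2. The same held for Adar, which edits adenosine to inosine in double-stranded RNA and differed from normoxia by 0.27 at day 28 and 0.04 at day 56.

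Ifit1, whose protein binds foreign RNA caps, showed the widest range of any member. It had 3, 4 and 7 reads in normoxia, 288, 1040 and 8 reads at day 28, and 1192, 878 and 1225 reads at day 56. These are 0.125, 0.147 and 0.454 CPM, then 7.66, 26.4 and 0.256 CPM, then 44.5, 36.9 and 41.1 CPM. Normoxia was near 0 in all 3 libraries, day 56 was high in all 3, and day 28 was divided, with replicate 3 at the normoxia level. At day 56 the log2 fold change was 7.53 (standard error 1.40, adjusted p = 0.020), and at day 28 it was 5.70 (standard error 1.36, adjusted p = 0.080). The normoxia side rests on 14 reads, so the size of the ratio is imprecise. The call held in 16 of 21 alternatives (adjusted p from 4.2e-07 to 0.10), and was lost without normoxia replicate 2 or 3 (0.086 and 0.074), without day 56 replicate 2 or 3 (0.064 and 0.070), and when the intron share was a covariate (0.10).

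The genes around Ifit1 did not share that pattern. Ifit1 lies at chr1:252944102-252946170 of the rn6 build, and 97.9% of its reads mapped uniquely. Ifit2 (chr1:252894662-252900726) was at 28.6, 18.6 and 31.7 CPM in normoxia, 36.2, 52.4 and 27.4 CPM at day 28, and 21.1, 11.1 and 18.1 CPM at day 56. Ifit3 (chr1:252906233-252911382), whose protein works in a complex with the other IFIT proteins, was at 15.5, 25.1 and 36.7 CPM, then 24.7, 29.9 and 19.5 CPM, then 18.6, 7.23 and 12.9 CPM. Both were lower at day 56 than in every day 28 library, and neither passed against normoxia (adjusted p = 0.19 and 0.12). The gene between them and Ifit1, annotated Ifit1bl (chr1:252914683-252922486) and outside the set, was looked at after these values were seen. It had 130, 1389 and 889 reads in normoxia, 47, 165 and 165 at day 28, and 270, 108 and 151 at day 56. Its values ran opposite to those of Ifit1 (log2 fold change -3.41 at day 28 and -2.53 at day 56), without passing (adjusted p = 0.080 and 0.074). Normoxia replicate 1 lay near the Sugen-hypoxia libraries for Ifit1bl, and with the other normoxia libraries for Ifit1.

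**Figure D3:**
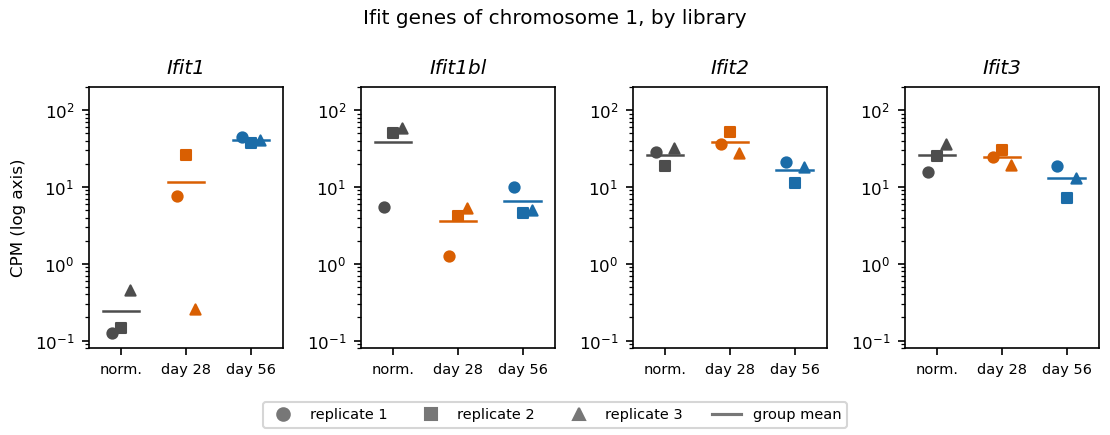
CPM on a log axis of Ifit1, Ifit1bl, Ifit2 and Ifit3 in each library, with lines at the group means. Ifit1 is under 1 CPM in normoxia and in day 28 replicate 3 and above 36 CPM in every day 56 library, while Ifit2 and Ifit3 stay within a narrow range.

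Among the proteins that block viruses, none of the 5 tested members passed in any comparison. Over all genes, 0.129% passed at day 28, 7.12% at day 56 and 0.546% between the days, so 0 of 5 is near the background. Mx1, a dynamin-like GTPase, was at 215, 413 and 396 CPM in normoxia, 231, 200 and 238 CPM at day 28, and 231, 170 and 209 CPM at day 56. Mx2 was at 26.9, 53.8 and 46.1 CPM, then 32.2, 27.0 and 34.5 CPM, then 31.1, 13.3 and 20.01 CPM. In both genes normoxia replicates 2 and 3 were above every Sugen-hypoxia library and replicate 1 was not. The log2 fold changes at day 56 were -0.75 for Mx1 (adjusted p = 0.094) and -0.98 for Mx2 (adjusted p = 0.088). Bst2, the tetherin that holds virus particles at the membrane, differed by 0.44 at day 28 and -0.07 at day 56, with adjusted p of 0.36 and 0.90.

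Ifitm3, known for keeping viruses from leaving endosomes, was hardly read. It had 6, 6 and 4 reads in normoxia, 8, 9 and 4 at day 28, and 6, 2 and 3 at day 56, and was the one member left untested. Its relatives Ifitm1 and Ifitm2 were at 46.9 to 136 and at 28.2 to 77.5 CPM over the 9 libraries, so the family was present while this gene was close to the detection limit.

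Rsad2, which encodes viperin, an enzyme that makes a chain-terminating nucleotide, had the lowest member value at day 28, -2.46 on the log2 scale. It was at 387, 811 and 962 CPM in normoxia, 15.3, 72.1 and 305 CPM at day 28, and 542, 478 and 490 CPM at day 56. Day 28 was below both other groups, with replicate 3 nearest to them. The day 28 change had a standard error of 0.84 and an adjusted p of 0.12. Of the alternatives, it passed only without day 28 replicate 3 (-4.04, adjusted p = 0.020) and without normoxia replicate 1 (-2.73, adjusted p = 0.044). Those omissions called 3.07% and 45.2% of all genes. Cmpk2 is the mitochondrial nucleotide kinase that adjoins Rsad2 (chr6:45683233-45694822, beside chr6:45655953-45669148). It was at 27.6, 69.8 and 88.1 CPM in normoxia, 13.2, 17.5 and 29.2 CPM at day 28, and 32.8, 30.9 and 30.6 CPM at day 56, with -1.63 at day 28 (adjusted p = 0.083). The neighbours had the same order of libraries at day 28, replicate 1 lowest and replicate 3 highest.

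Isg20, an exonuclease that degrades viral RNA, had the same course. It was at 18.4, 35.7 and 45.4 CPM in normoxia, 4.57, 4.72 and 9.18 CPM at day 28, and 19.7, 16.7 and 24.3 CPM at day 56. The log2 fold change at day 28 was -2.43 (standard error 0.38, adjusted p = 0.053). Being close to the threshold, it passed with upper-quartile factors, no filter, uniquely mapped reads and the replicate block (adjusted p from 0.014 to 0.048). It also passed without day 28 replicate 3 (-2.83, adjusted p = 0.0091), without normoxia replicate 1 (-2.69, adjusted p = 0.00054) and in DESeq2 (4.5e-07). These last settings called, in turn, 3.07%, 45.2% and 13.6% of all genes. In the remaining alternatives Isg20 did not pass. At day 56 it was -0.71 from normoxia (adjusted p = 0.21).

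Red cell RNA moved with Rsad2 and Isg20. The 14 erythroid markers summed to 4382, 9000 and 11239 CPM in normoxia, 149, 493 and 2744 CPM at day 28, and 4993, 5819 and 5748 CPM at day 56. Across the 9 libraries this sum and the levels of both genes were lowest in day 28 replicates 1 and 2, next in day 28 replicate 3 and highest in normoxia replicates 2 and 3. All 14 markers were lower at day 28 than in normoxia, 11 of them without overlap against 11.8% of all genes, and 1 (Slc25a37) fell. None was at 0 in a group: Tspo2 was at 0 in day 28 replicate 1. The 12 platelet markers summed to 1010 to 4563 CPM in normoxia, 793 to 1280 CPM at day 28 and 2512 to 4894 CPM at day 56, and all 12 were lower at day 28. Their part in the values of Rsad2, Isg20 and Cmpk2 was not tested.

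The promoters of Rsad2 and Isg20 are shown because these genes had the lowest log2 fold changes of the set at day 28, although neither passed. Both hold an ISRE match and no GAS match, 147 bases before the start in Rsad2 (chr6:48788121-48788277, minus strand, GRCr8) and 92 bases before it in Isg20 (chr1:142239957-142240058, plus strand). The Rsad2 match is on the strand opposite to the gene. The Cmpk2 window has neither motif.
Rsad2: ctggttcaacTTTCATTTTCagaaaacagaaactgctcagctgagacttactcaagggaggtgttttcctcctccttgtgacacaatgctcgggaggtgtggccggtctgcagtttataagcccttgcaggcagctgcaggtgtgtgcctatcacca
Isg20: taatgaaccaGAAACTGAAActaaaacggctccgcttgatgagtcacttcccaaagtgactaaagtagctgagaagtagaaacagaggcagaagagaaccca

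**Figure D4:**
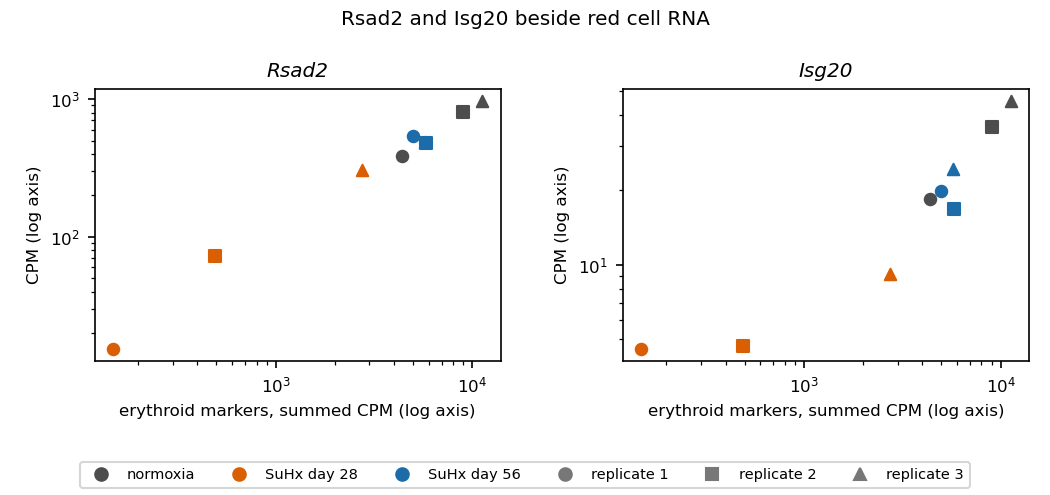
CPM of Rsad2 and Isg20 (vertical, log axis) against the summed CPM of 14 erythroid markers (horizontal, log axis), 1 point per library. Day 28 replicates 1 and 2 are at the lower left, at 15.3 and 72.1 CPM of Rsad2, and normoxia replicates 2 and 3 at the upper right, at 811 and 962 CPM.

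The interferon-inducible GTPases, which attack the vacuoles of intracellular parasites and bacteria, were the role group with the lowest median at day 56. Of 5, 2 fell and 4 were below normoxia without overlap, where 3.7% of all genes fell and 14.9% were lower without overlap, and the median log2 fold change was -0.92. At day 28 none passed, 4 of 5 were higher, and the median was 0.24. Ifi47, of the immunity-related GTPases, was at 79.5, 72.1 and 84.0 CPM in normoxia, 59.9, 86.1 and 56.5 CPM at day 28, and 27.2, 15.8 and 28.9 CPM at day 56. The day 56 libraries were far below the other groups. The log2 fold change was -1.71 against normoxia (standard error 0.25, adjusted p = 0.0099) and -1.49 against day 28 (standard error 0.25, adjusted p = 0.041). The fall against normoxia held in all 21 alternatives, with an adjusted p of at most 0.038. That against day 28 held in 11 (adjusted p from 9.7e-06 to 0.44).

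Irgm, a regulator of the same GTPases, was at 19.9, 13.2 and 16.4 CPM in normoxia, 12.5, 31.0 and 19.2 CPM at day 28, and 6.42, 6.05 and 7.004 CPM at day 56. Day 56 was tight and below the rest, with -1.34 against normoxia (standard error 0.31, adjusted p = 0.037, called in 12 of 21 alternatives, from 0.0018 to 0.14). Igtp, its close relative with the same promoter layout, was at 39.3, 24.5 and 25.1 CPM in normoxia, 19.9, 51.7 and 33.6 CPM at day 28, and 13.4, 12.5 and 21.1 CPM at day 56. It was also below normoxia without overlap but did not pass (-0.92, adjusted p = 0.12). Ifi47 and Irgm lie near each other on chromosome 10 (chr10:34277992-34285623 and chr10:34213935-34221928). A gene between them, listed as RGD1559575 and looked at after these values were seen, fell as well at day 56 (-0.86, adjusted p = 0.046).

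The guanylate-binding proteins Gbp2 and Gbp5, which coat and lyse bacteria in the cytosol, did not pass. Gbp5 differed from normoxia by 0.05 at day 28 and -0.21 at day 56. Gbp2 was at 74.8, 80.8 and 93.8 CPM in normoxia, 66.4, 253 and 74.5 CPM at day 28, and 52.3, 45.6 and 70.3 CPM at day 56. Its day 28 mean rested on replicate 2: the log2 fold change of 0.66 (adjusted p = 0.34) became -0.24 without that library. The same library was the highest of its group for Irgm, Igtp, Ifi47 and Gbp5. Its classical monocyte markers were also highest. The 8 of them summed to 2064 to 4425 CPM in normoxia, to 4309, 10943 and 3322 CPM at day 28, and to 1653 to 2657 CPM at day 56, with no marker at 0. Other myeloid markers were highest in this library too. Neutrophil markers summed to 143, 353 and 167 CPM at day 28, with 1 of 12 at 0 in each, and non-classical monocyte markers to 1384, 1646 and 964 CPM, with none at 0. Within the set, 28 members had their highest day 28 value in replicate 2. The part of monocyte or neutrophil RNA in these values was not tested.

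The ISG15 pathway couples a ubiquitin-like tag to proteins. Its genes were grouped here with other ubiquitin ligases and with ADP-ribosyltransferases, and the 8 members of this mixed group had a median of -0.66 at day 56. Of the 8, 1 fell and 5 were below normoxia without overlap, again against 3.7% and 14.9% of all genes, and 7 were lower. Trim21, an antibody-binding ubiquitin ligase of the cytosol, was at 46.4, 50.1 and 52.3 CPM in normoxia, 35.9, 42.7 and 48.3 CPM at day 28, and 32.2, 26.9 and 26.9 CPM at day 56. The replicates were close, and the log2 fold change at day 56 was -0.79 (standard error 0.16, adjusted p = 0.024, called in 15 of 21 alternatives, from 0.00029 to 0.12). Usp18, which removes ISG15 and holds back the type I receptor, was at 8.29, 18.7 and 22.4 CPM in normoxia, 10.96, 17.5 and 12.3 CPM at day 28, and 8.02, 4.24 and 6.40 CPM at day 56. Day 56 did not overlap either other group, but the value of -1.40 missed the threshold (standard error 0.38, adjusted p = 0.054).

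Isg15, the tag itself, was at 7.16, 19.8 and 29.98 CPM in normoxia, 6.22, 8.58 and 8.25 CPM at day 28, and 9.59, 5.42 and 11.7 CPM at day 56. Normoxia replicate 1 was at the level of the Sugen-hypoxia libraries and replicates 2 and 3 were above all of them. The log2 fold changes were -1.30 at day 28 and -1.08 at day 56, with adjusted p of 0.12 and 0.15. Herc6, its rodent ligase, was below normoxia in every day 28 library, at 30.7, 28.9 and 29.8 CPM against 35.7, 36.4 and 32.6 CPM, a log2 fold change of -0.23 (adjusted p = 0.52). Dtx3l, Parp9 and Parp14, which act together in ADP-ribosylation, were each below normoxia without overlap at day 56, with -0.63, -0.69 and -0.32 and adjusted p of 0.12, 0.11 and 0.30. Trim25, the ligase that helps activate RIG-I, was the one member of this group above normoxia at day 56, by 0.16 (adjusted p = 0.74).

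Another 10 members have other or less settled roles, and 2 of them fell at day 56, where 3.7% of all genes fell. Ifi27, a small mitochondrial membrane protein widely used in blood as an interferon marker, had 1394, 3434 and 2260 reads in normoxia, 3112, 3561 and 5109 reads at day 28, and 225, 139 and 336 reads at day 56. These are 58.1, 126 and 147 CPM, then 82.8, 90.4 and 163 CPM, then 8.39, 5.84 and 11.3 CPM. Normoxia and day 28 overlapped, and every day 56 library was far below every other. At day 56 its log2 fold change was -3.70 against normoxia (standard error 0.43, adjusted p = 0.0040) and -3.72 against day 28 (standard error 0.43, adjusted p = 0.015), while day 28 differed from normoxia by 0.02 (standard error 0.39).

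This was the largest fall of the set in either comparison with day 56. The call against normoxia held in all 21 alternatives, with an adjusted p of at most 0.024. That against day 28 held in 17, and was lost without day 56 replicate 1, 2 or 3 (adjusted p = 0.083, 0.099 and 0.078) and with globin share as a covariate (0.055). The adjoining Ifi27l2b, also looked at after these values were seen, had 1915, 5252 and 3201 reads in normoxia, 2602, 2470 and 3160 at day 28, and 1670, 1458 and 2606 at day 56. Its log2 fold changes were -1.05 at day 28 and -1.19 at day 56, the second with an adjusted p of 0.066.

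Rtp4, a chaperone that carries membrane receptors to the cell surface and is strongly induced by interferon, was at 10.5, 32.6 and 28.7 CPM in normoxia, 10.1, 13.8 and 10.7 CPM at day 28, and 6.71, 5.25 and 7.34 CPM at day 56. The groups at days 0 and 28 met at normoxia replicate 1, and day 56 was below both. The log2 fold change was -1.05 at day 28 (adjusted p = 0.12) and -1.89 at day 56 (standard error 0.37, adjusted p = 0.024, called in 14 of 21 alternatives, from 6.3e-05 to 0.14). Ifi44 and its neighbour Ifi44l, which lie side by side on chromosome 2, were -0.86 and -0.94 from normoxia at day 56 with adjusted p of 0.078 and 0.081. Ifi35, Xaf1 and Epsti1 differed by -0.49, -0.35 and -0.61 at day 56, each overlapping normoxia and none passing. Lgals3bp, Lgals9 and Helz2 were within 0.09 of normoxia at day 56 on the log2 scale.

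**Figure D5:**
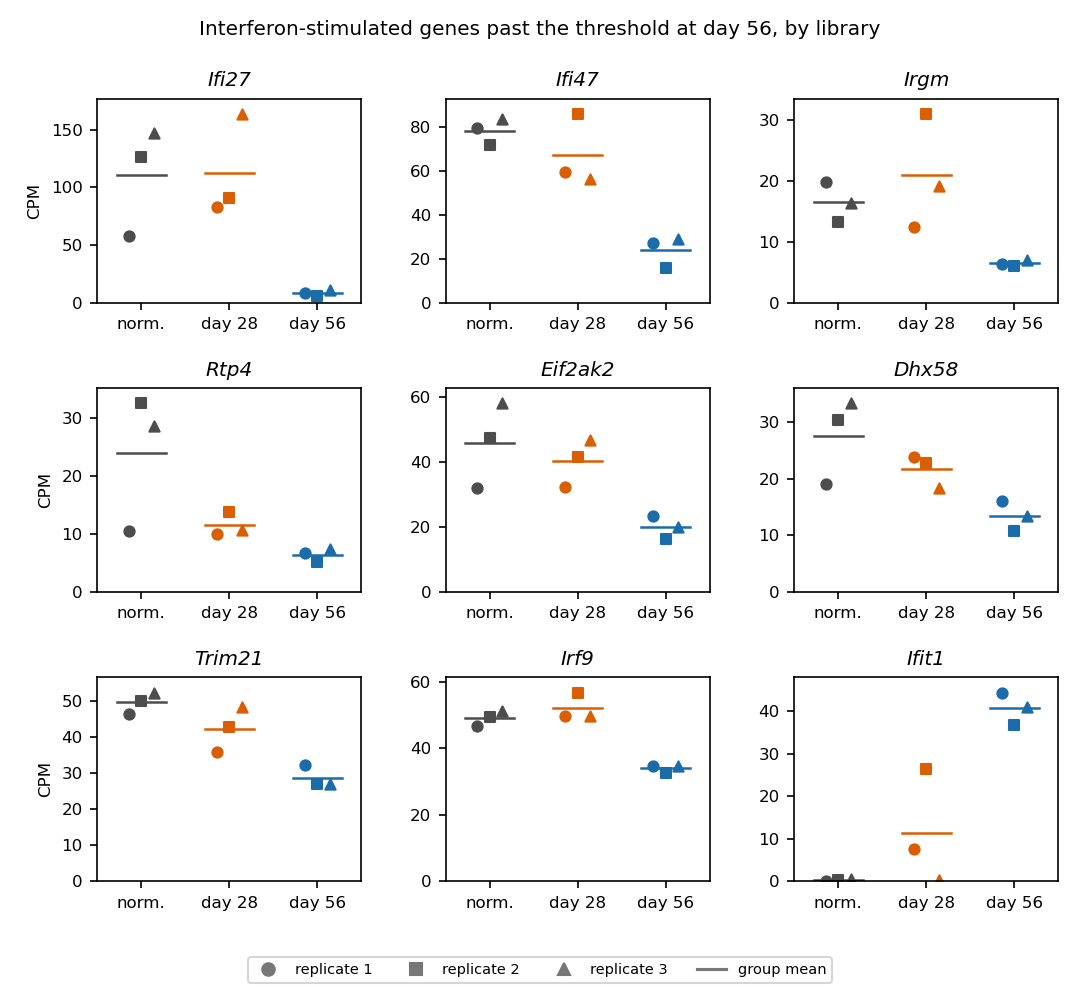
CPM in each library of the 9 members called at day 56, each panel on its own axis from 0, with lines at the group means. In 8 panels the day 56 points lie below all normoxia points, by the widest margin in Ifi27, and in Ifit1 they lie above.

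The levels of the members spanned a wide range, compared here per kilobase of exon. In normoxia the highest were Rsad2 at 196 ± 81.4, Ifi27 at 138 ± 58.2, Mx1 at 103 ± 33.1, Irf7 at 72.4 ± 35.4 and Irf1 at 65.5 ± 2.71 CPM per kilobase (SD, n = 3 each). These neighbours in the order do not differ beyond their spread. The lowest were Oas2 at 1.36 ± 0.693, Ifitm3 at 0.348 ± 0.029 and Ifit1 at 0.117 ± 0.089. At day 56 Ifi27 stood at 10.6 ± 3.40 and Ifit1 at 19.7 ± 1.83 CPM per kilobase, so that Ifit1 went from the last place in normoxia to a level above Ifi27.

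Upstream of the set, the interferons themselves were almost absent from these cells. Of 12 ligand genes listed, 11 were in the table, and 9 of these had 0 reads in every library. Ifna4 had 1 read in normoxia replicate 3 and 2 reads in day 56 replicate 2. Ifng, the product of activated T and NK cells, was the one ligand tested. It had 2, 13 and 4 reads in normoxia, 31, 55 and 11 at day 28, and 21, 30 and 44 at day 56. Day 56 was above normoxia in each library, but the log2 fold change of 2.06 did not pass (adjusted p = 0.079), nor did that of 1.62 at day 28 (adjusted p = 0.15). NK cell markers, 8 of 8 tested, summed to 466 to 752 CPM in normoxia, 323 to 647 CPM at day 28 and 724 to 896 CPM at day 56.

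None of the 8 tested receptor chains and kinases passed in any comparison. Over all genes, 0.129% passed at day 28, 7.12% at day 56 and 0.546% between the days, so 0 of 8 is near the background. The type I receptor chains Ifnar1 and Ifnar2 differed by 0.45 and 0.51 at day 28 and by 0.14 and 0.07 at day 56. The interferon gamma chains Ifngr1 and Ifngr2 differed by 0.65 and 0.92 at day 28 and by 0.53 and 0.40 at day 56. Both were above normoxia in every library at both days, where 11.4% and 15.6% of all genes were higher without overlap. The kinases Jak1 and Tyk2 differed by 0.12 and 0.58 at day 28 and by 0.00 and 0.15 at day 56. The median of the 8 at day 56 was 0.10, where that of the interferon-stimulated genes was -0.57 and that of all genes was -0.04. Of the other STAT and IRF genes, 8 were tested and none passed, again near the background, with a median of 0.25 at day 56.

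Among 11 tested sensors and adaptors that lead to interferon production, 2 fell at day 56, where 3.7% of all genes fell. Tlr7, the endosomal receptor for single-stranded RNA, was at 34.1, 38.5 and 50.6 CPM in normoxia, 48.0, 76.7 and 47.6 CPM at day 28, and 19.0, 13.7 and 12.7 CPM at day 56. The log2 fold change was -1.44 against normoxia (adjusted p = 0.017) and -1.93 against day 28 (adjusted p = 0.029), each called in 16 of 21 alternatives (highest adjusted p 0.093 and 0.27). Tbk1, the kinase that activates IRF3, was at 47.6, 54.8 and 56.5 CPM in normoxia and 38.9, 35.6 and 31.1 CPM at day 56 (-0.59, adjusted p = 0.047), a call that held in 5 of 21 alternatives (0.0039 to 0.17). The 8 markers of plasmacytoid dendritic cells, which are rich in Tlr7, summed to 392 to 394 CPM in normoxia, 364 to 485 CPM at day 28 and 324 to 415 CPM at day 56. Of these, Cox6a2 was at or near 0 in all libraries, and Bst2 is itself a member of the set. From day 28 to day 56, 6 of the 7 tested were lower and 1 higher, 0 of them without overlap. Of the classical monocyte markers, 8 of 8 were lower, 6 without overlap, against 17.4% of all genes. The part of either cell type in the values of Tlr7 was not tested.

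Of 11 tested restraints on the pathway, 1 rose and 0 fell at day 56, where 3.42% of all genes rose and 3.7% fell. In all, 7 were higher and 4 lower, with a median log2 fold change of 0.21. Irf2bp2, a corepressor that binds IRF2, was at 26.2, 16.5 and 14.0 CPM in normoxia, 43.0, 45.9 and 31.1 CPM at day 28, and 51.0, 56.8 and 50.7 CPM at day 56 (log2 fold change 1.48, adjusted p = 0.014, called in 17 of 21 alternatives, at most 0.068). Socs1 and Socs3, which block JAK signalling, were above normoxia in every library at both days without passing. Over all genes, 11.4% at day 28 and 15.6% at day 56 were higher without overlap. At day 56 Socs1 differed by 1.61 (adjusted p = 0.054) and Socs3 by 1.55 (adjusted p = 0.063). Ptpn2 had the lowest value of the list at day 56, -0.74 (adjusted p = 0.073).

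Of 38 further interferon-induced genes tested outside the set, 3 fell (7.89%) and 0 rose at day 56, against 3.7% and 3.42% of all genes. In all, 26 were lower, and the median was -0.26 where that of all genes was -0.04. Slfn2, which keeps T cells and monocytes quiescent, was at 397, 554 and 547 CPM in normoxia, 357, 460 and 400 CPM at day 28, and 166, 198 and 209 CPM at day 56. It fell by 1.39 on the log2 scale (adjusted p = 0.011), called in 20 of 21 alternatives (at most 0.062). Samd9, a restriction factor for poxviruses, fell by 1.93 (adjusted p = 0.021, called in 16 of 21, at most 0.10). Pnpt1, a mitochondrial exoribonuclease, fell by 1.03 (adjusted p = 0.045, called in 9 of 21, at most 0.19).

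Markers of other cells moved beside the falls at day 56. The 7 B cell markers summed to 950, 1691 and 1107 CPM in normoxia, 935, 804 and 527 CPM at day 28, and 751, 734 and 452 CPM at day 56. Day 56 was below normoxia without overlap, 6 of the 7 were lower, 1 (Cd79b) fell, and none was at 0. The 11 T cell markers summed to 1392 to 1557 CPM in normoxia and 1397 to 1760 CPM at day 56. Of these, 4 were higher and 7 lower, with a median log2 fold change of -0.10, and 1 (Cd28) rose. The erythroid sums of normoxia and day 56 overlapped, and 0 of 14 erythroid and 0 of 12 platelet markers passed at day 56. Of the 9 neutrophil markers tested, 1 (Mmp9, log2 fold change 2.18) rose and 2 were higher without overlap, while the sum over the list was 87.7 to 149 CPM in normoxia and 111 to 152 CPM at day 56. Of 5 tested markers of non-classical monocytes, 1 (Nr4a1, log2 fold change 1.92) rose. Of 8 NK cell markers, 0 passed and 4 were higher without overlap. As background for these counts, 3.7% of all genes fell, 3.42% rose and 15.6% were higher without overlap. From day 28 to day 56, 8 of 8 classical monocyte markers were lower, 6 without overlap, with a median log2 fold change of -1.42. Of 14 erythroid markers 13 were higher without overlap, as were 11 of 12 platelet and 4 of 8 NK cell markers. Over all genes, 17.4% were lower and 17.8% higher without overlap between these days. The part of these cell types in the falls of the set was not tested.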

How the data were processed

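PBMC of 3 groups of 3 rats' samples were profiled by RNA sequencing. The authors deposited 1 table for the series. Per the file headers it gives, per Ensembl gene, exon reads, uniquely mapped exon reads and exon plus intron reads. These deposited values are raw counts, except that a broken line makes the unique reads of replicate 1 formally estimated counts in the authors' file (whole on every intact line, so none was rounded). Reads were mapped to rn6 and checked with FastQC, per the submitters' processing notes; the aligner, strand setting and annotation version: not given in the sources used here. Of 22085 lines, 22077 held intact genes. A further 90 columns of per-sample values were not used. Exon lengths came from the table. Promoter windows and their coordinates are RefSeq's, on GRCr8; gene coordinates are the table's, on rn6.

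Exon reads were fitted with the quasi-likelihood test of edgeR 4.0.16 in R 4.3.3 (TMM factors, default filterByExpr filter, robust fit, 1 mean per group over 9 libraries; common coefficient of variation 0.280). P-values were adjusted by Benjamini-Hochberg at 0.05 over 12447 genes; standard errors come from the F statistic. The fit was tested on simulated data. Alternatives were other scaling factors, DESeq2 1.42.0, 2 other filters, other read classes, a replicate block, intron or globin share as a covariate, globin genes left out, only the 2 groups compared, and each library left out. A count of 3 reads equals 0.0751 to 0.135 CPM before TMM scaling. Reads carry no molecular identifiers, so low counts cover counting error only.

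The members are defined by function and not by a measured value, but they, the gene lists, named genes and tests were chosen with earlier results of these data known. The text names members called in any comparison, the 5 largest rises and falls per comparison, and 16 members whatever their result; the remaining members are named so that every member is accounted for. Replicate numbers are not tied to animals by the labels.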

Additional observations from a re-analysis of the deposited data

Results flagged for a closer look

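In 3 genes the level differed between the Sugen-hypoxia groups by a direct test, so that their change from normoxia was not the same at both days. Ifi27 was -3.72 on the log2 scale at day 56 against day 28 (edgeR adjusted p = 0.015), lower in 3 of 3 libraries: it stood at 82.8 to 163 CPM at day 28 and 5.84 to 11.3 CPM at day 56. Ifi47 was -1.49 (adjusted p = 0.041), at 56.5 to 86.1 and 15.8 to 28.9 CPM. Tlr7, outside the set, was -1.93 (adjusted p = 0.029), at 47.6 to 76.7 and 12.7 to 19.0 CPM. In all 3 the day 28 libraries overlapped normoxia.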

How the results depend on the processing

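Ifi27 and Ifi47 kept their call at day 56 against normoxia in all 21 alternatives, and the median of the set stayed below 0. At day 28 the count of 0 calls became 1 with upper-quartile factors, without a filter, with uniquely mapped reads and with the replicate block, 4 with DESeq2, and 0 to 18 on leaving out single libraries (18 without normoxia replicate 1, 4 without day 28 replicate 3). At day 56 the count of 9 became 2 with the intron share as covariate, 4 with only the 2 groups compared, 15 with DESeq2 and 2 to 27 on leaving out single libraries. The intron covariate called 1.11% of all genes there and the 2 groups alone 2.89%, where the main fit called 7.12%. Between the days the count of 2 became 1 with exon plus intron reads or the intron covariate. With the globin covariate it became 0, as did the count over all genes. The count of members between the days became 7 with only the 2 groups compared, 12 with DESeq2 and 0 to 12 on leaving out single libraries. DESeq2 called 13.6% of all genes at day 28, 19.6% at day 56 and 8.72% between the days. Gbp2 at day 28 turned from 0.66 to -0.24 without day 28 replicate 2; over the single omissions it ranged from -0.24 to 1.01. Where a library is left out its group keeps 2. The cause of these shifts was not tested. Same-numbered libraries correlated at -0.15 to 0.17 in their deviations. With 3 libraries per group, these values cannot tell whether such libraries shared more than a number. With the replicate block the counts were 1 at day 28, 6 at day 56 and 3 between the days. At these depths Ifitm3 and the interferon ligands other than Ifng could not be tested.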

Other observations

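The ISG15 machinery outside the set and the chemokines that interferon gamma induces gave further values. Ube2l6, the conjugating enzyme for ISG15, was at 2.79, 13.4 and 19.1 CPM in normoxia, 2.63, 3.91 and 3.29 CPM at day 28, and 3.36, 2.98 and 4.39 CPM at day 56. As for Isg15, normoxia replicate 1 was at the level of the Sugen-hypoxia libraries, and the log2 fold changes of -1.83 at day 28 and -1.71 at day 56 did not pass (edgeR adjusted p = 0.099 and 0.081). Uba7, the activating enzyme, differed by -0.38 and -0.29. Cxcl10 was at 0.666, 1.66 and 2.47 CPM in normoxia, 2.45, 7.46 and 2.37 CPM at day 28, and 2.39, 2.02 and 3.45 CPM at day 56. These chemokine levels are uncertain, since only 36.3% of Cxcl10 reads and 51.0% of Cxcl11 reads mapped uniquely. Cxcl9 and Cxcl11 were read too little to be tested, and their highest level, 1.40 and 0.812 CPM, was in day 28 replicate 2, the library that was also highest for Cxcl10, Gbp2 and Irf1.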
